A study of Mus musculus with 4 samples.

Results

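Voltage-gated sodium, calcium and HCN channel genes were examined in primary cultures of mouse cerebral cortex. They were taken by symbol: every probe set whose platform annotation gave a single sodium channel (Scn), calcium channel (Cacna1, Cacna2d, Cacnb, Cacng) or HCN (Hcn) subunit gene was a member. This gave 87 probe sets of 37 genes, out of 45037 probe sets and 18193 named genes on the array. The study compared 2 arrays of neuron cultures with 2 arrays of astrocyte cultures, all from C57BL6 mice. Neurons were prepared from the cortex of fetuses at embryonic day 16 and kept for 7 days in vitro, in basal medium Eagle that held glucose at 19.4 mM, fetal calf serum at 1%, glutamine, progesterone, putrescine, transferrin, insulin, selenite and antibiotics. Astrocytes were prepared from newborn cortex and kept for 20 days in vitro, by the series description, in basal medium Eagle that held glucose at 33 mM, fetal calf serum at 10%, glutamine and antibiotics. The protocol text gives a shorter period, common to all assays. Both cell types were plated in the astrocyte medium, and the labels describe no sorting of cells by a marker. Cell type, age of the donor, medium and time in culture therefore cannot be told apart. The arrays are labelled as biological replicates, but the labels do not say which animals or how many went into each, so p-values measure the spread between these samples.

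Voltage-gated sodium channels carry the upstroke of the action potential. Each has a large pore-forming alpha subunit with its own voltage sensors, and smaller beta subunits that adjust gating and membrane targeting. High-voltage-activated calcium channels combine a pore-forming alpha1 subunit with a cytosolic beta and an extracellular alpha2delta subunit; they couple depolarization to transmitter release, gene expression and dendritic signalling, while the low-voltage T-type channels work as alpha1 subunits alone. HCN channels open on hyperpolarization, bind cyclic nucleotides and set resting potential and rhythm. Astrocytes do not fire action potentials, but calcium channel subunits have been described in them.

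Neuron cultures held more transcript of most channel subunits that were measured well. Of the 37 genes, 21 were higher in neurons and 1, Cacng8, was higher in astrocytes at an adjusted p under 0.05. A further 5 were tested and did not pass, and 10 were too dim to be tested. Among all 12040 genes tested, 31.0% were higher in neurons and 31.1% higher in astrocytes. A gene was tested where its signal reached the array's median on at least 2 of the 4 arrays. Through the neuron arrays alone 13 met this: Cacna1b, Cacna1c, Cacna1e, Cacna1g, Cacna1h, Cacna2d2, Cacnb1, Cacng2, Cacng4, Hcn3, Scn1a, Scn3a and Scn8a. Through the astrocyte arrays alone 1 did, Cacng8. Such genes had to differ, so their calls with the filter are not separate support. When every gene was tested with no such filter, the counts over all 37 were again 21 and 1, where 18.6% and 18.4% of the 18193 genes were called, with Cacng3 (adjusted p = 0.0173) in place of Cacng5 (adjusted p = 0.0642). The median log2 fold change over all 37, neurons minus astrocytes, was 1.58 without the filter, against 0.05 over all genes.

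Signals are the authors' MAS5 values on a linear scale, and fold changes are on the log2(signal + 12.5) scale, which understates the change of dim genes. The highest of 27 control probe sets for Bacillus subtilis transcripts served as background; it was 21 and 23 for neurons and 17 and 15 for astrocytes. On both neuron arrays 29 of the 37 genes lay above it, and on both astrocyte arrays 17 did. The share of probe sets above background was 63.1% and 61.4% for neurons, against 66.5% and 66.9% for astrocytes. These shares count probe sets per array, so they do not match the gene counts directly. A fold written as "at least" belongs to a gene with both arrays of a culture at or under background, and is computed from signals without the offset, with that culture at its background. Unless another probe set is named, a gene's signals and its place against background are those of the 1 probe set that reads it. Among the 27 channel genes tested, both neuron arrays lay above both astrocyte arrays for 22, where this held for 41.4% of all genes tested, and both astrocyte arrays lay above for 2, against 40.5% of all genes tested. Among the 10 not tested, neurons lay above for 1 (Cacng3) and astrocytes for 2 (Cacna1s and Scn4b). The share among all genes not tested was not computed, so these counts are description only. In these cultures fewer cells of a type and less RNA per cell cannot be told apart.

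**Figure D1:**
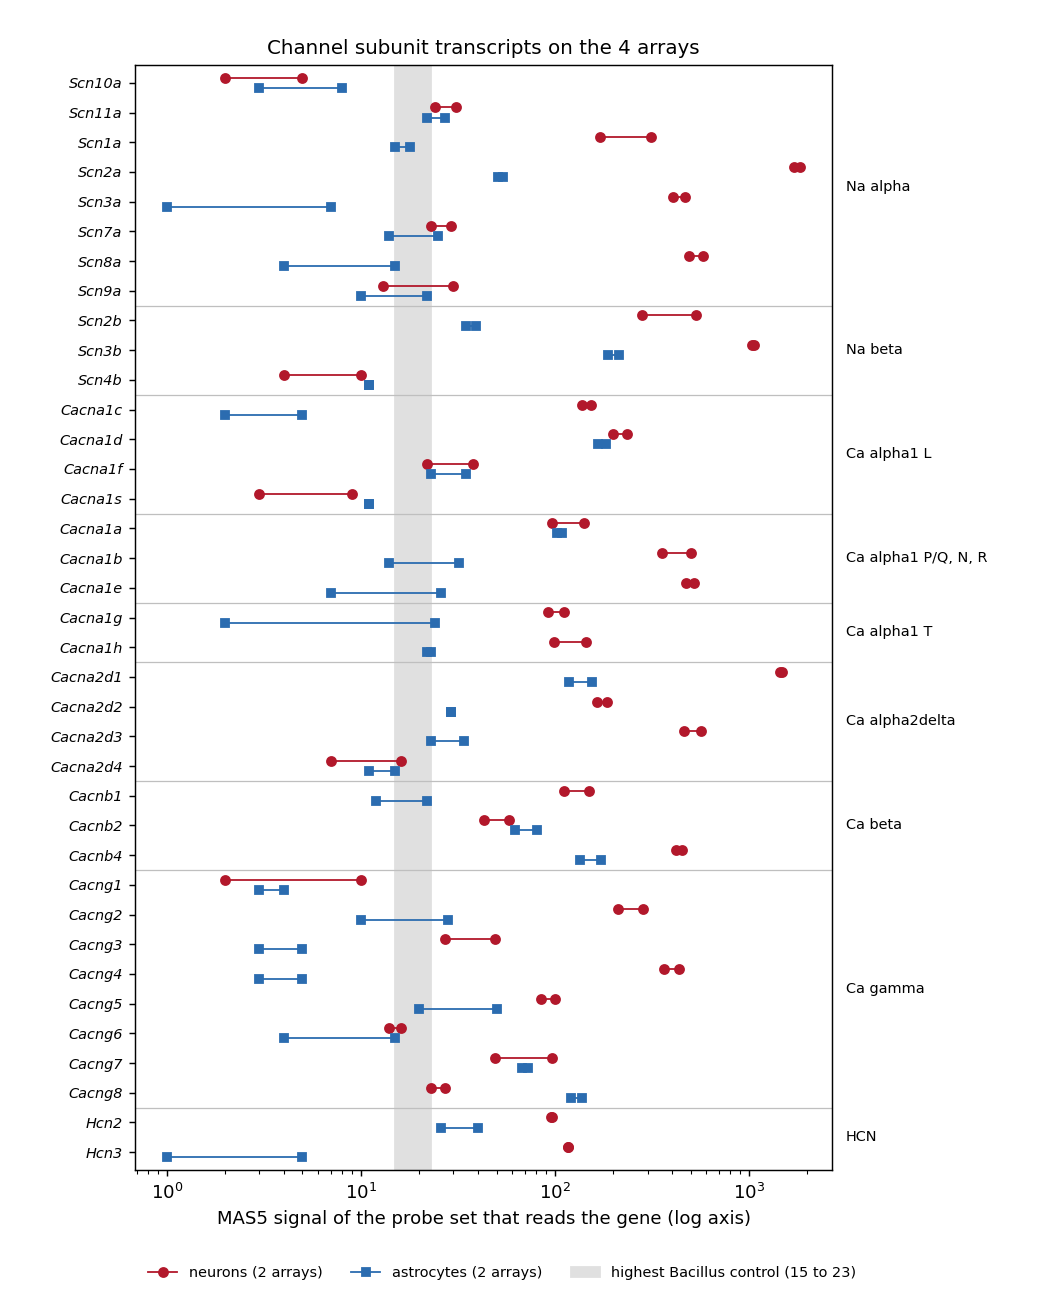
MAS5 signal of each of the 37 channel genes on the 2 neuron arrays (red circles) and the 2 astrocyte arrays (blue squares), on a log axis, grouped by subunit family; a line joins the arrays of a group and the grey band spans the highest Bacillus subtilis control of each array, 15 to 23. Signals of different probe sets are not comparable in level; the red pair lies above the blue pair for 23 genes, and the blue pair above the red for 4, of which Cacna1s and Scn4b are below the band.

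The sequences before the annotated starts are shown for the gene that was higher in astrocytes and for the 3 genes with the largest fold change, on the probe set that reads each gene, among those with a window in the RefSeq promoter table (build GRCm38.p6). The choice depends on the probe set, since Cacna1b, which also has a window, had larger fold changes than these on its other tested probe sets. Each is the 250 bases upstream of an annotated start, 5′ to 3′ on the strand of the gene, with CpG dinucleotides in capitals.
Scn2a first window, chr2:65620519-65620768, plus strand: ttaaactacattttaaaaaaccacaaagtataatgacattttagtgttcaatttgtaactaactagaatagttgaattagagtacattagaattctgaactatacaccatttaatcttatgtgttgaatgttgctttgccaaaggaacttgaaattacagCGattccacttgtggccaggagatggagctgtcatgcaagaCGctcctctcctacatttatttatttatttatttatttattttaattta
Scn2a second window, chr2:65668436-65668685, plus strand: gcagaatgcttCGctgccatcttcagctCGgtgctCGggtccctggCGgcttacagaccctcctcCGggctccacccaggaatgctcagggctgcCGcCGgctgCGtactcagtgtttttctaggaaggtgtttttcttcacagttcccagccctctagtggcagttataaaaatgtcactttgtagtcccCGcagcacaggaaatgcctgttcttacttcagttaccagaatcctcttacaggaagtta
Scn8a first window, chr15:100870395-100870644, plus strand: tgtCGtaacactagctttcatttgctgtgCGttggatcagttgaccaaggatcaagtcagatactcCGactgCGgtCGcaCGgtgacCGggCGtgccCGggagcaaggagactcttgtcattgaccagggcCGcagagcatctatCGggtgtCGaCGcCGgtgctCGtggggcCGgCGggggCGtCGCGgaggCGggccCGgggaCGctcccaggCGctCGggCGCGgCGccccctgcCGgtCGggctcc
Scn8a second window, chr15:100936021-100936270, plus strand: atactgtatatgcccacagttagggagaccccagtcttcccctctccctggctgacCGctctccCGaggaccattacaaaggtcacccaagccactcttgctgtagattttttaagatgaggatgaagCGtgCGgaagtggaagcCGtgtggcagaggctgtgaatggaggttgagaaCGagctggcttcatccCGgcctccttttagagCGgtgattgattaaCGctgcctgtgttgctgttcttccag
Cacna1e, chr1:154725921-154726170, minus strand: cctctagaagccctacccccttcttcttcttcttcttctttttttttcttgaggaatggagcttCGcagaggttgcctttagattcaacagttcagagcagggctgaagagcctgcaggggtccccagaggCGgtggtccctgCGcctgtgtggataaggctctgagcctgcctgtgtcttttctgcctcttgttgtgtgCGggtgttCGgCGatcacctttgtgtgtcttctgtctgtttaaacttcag
Cacng8, chr7:3393792-3394041, plus strand: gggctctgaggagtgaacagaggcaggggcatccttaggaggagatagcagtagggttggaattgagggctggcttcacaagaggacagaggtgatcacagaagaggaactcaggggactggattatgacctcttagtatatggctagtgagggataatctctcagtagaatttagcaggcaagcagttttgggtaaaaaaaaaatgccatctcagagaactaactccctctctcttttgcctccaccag
The windows differ widely in base composition. The first Scn8a window holds 30 CpG and is 68.0% G or C, while the first Scn2a window holds 2 CpG and is 29.6% G or C. The Cacna1e window holds 6 CpG and the Cacng8 window holds 0. The windows of Cacna1e and Cacng8 and the second of Scn8a end in cag, letters that also end introns, and whether their annotated starts are true 5′ ends was not tested. The table held 38 windows of 28 of the 37 genes. The 23 windows of 15 genes that were higher in neurons had a median of 12 CpG, and all 32841 windows had a median of 6. A GC box (GGGCGG, either strand) was in 9 of these 23 windows (39.1%), against 32.8% of all windows, and a TATA box (TATAAA, either strand) in 1 (4.35%), against 12.4%. The left and right parts of the RE1 element, the site bound by the repressor REST, were searched as TCAGCACC and GGACAGC on either strand; the first was in 0 of the 23 windows (1.33% of all) and the second in 1, of Cacnb1 (5.29% of all). No motif searched contains another, and none of these counts was tested.

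The sodium channel alpha subunits split into 4 genes that were higher in neurons and 4 that were close to background in both cultures. Scn2a, the main alpha subunit of young cortical axons, had signals of 1839 and 1710 in neurons, against 54 and 51 in astrocytes. The neuron arrays lay far above the astrocyte arrays, and on this probe set the astrocyte arrays were themselves above background. Scn2a was 27.5-fold higher in neurons (log2 fold change 4.78, SE 0.14, adjusted p = 1.35e-07). Its other tested probe sets had 641 and 538 in neurons against 22 and 11 in astrocytes, and 429 and 493 against 15 and 6. In astrocytes 1 array was above background for the former and neither for the latter. Scn3a, the alpha subunit best known from the fetal and newborn brain, had 407 and 467 in neurons and 7 and 1 in astrocytes, at least 27.3-fold higher (log2 fold change 4.79, SE 0.24, adjusted p = 9.07e-07). Scn8a, which comes to dominate at the axon initial segment and nodes of mature neurons, had 578 and 490 in neurons and 4 and 15 in astrocytes, at least 33.3-fold higher (log2 fold change 4.68, SE 0.26, adjusted p = 1.71e-06). For both genes neither astrocyte array was above background. Scn1a, the alpha subunit most associated with inhibitory interneurons, had 171 and 312 in neurons and 18 and 15 in astrocytes, 8.43-fold higher (log2 fold change 3.07, SE 0.28, adjusted p = 2.74e-05). The 2 neuron arrays differed most for this gene among the alpha subunits called. A second tested Scn1a probe set had 87 and 72 in neurons and 33 and 23 in astrocytes, a smaller log2 fold change of 1.19. With all Scn1a probe sets averaged, the log2 fold change was 1.48.

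The other 4 alpha subunit genes were too dim to be tested. Scn9a, Scn10a and Scn11a are known from peripheral sensory neurons, and Scn7a encodes an atypical sodium-sensing channel found in some glia. Scn7a had signals of 29 and 23 in neurons and 25 and 14 in astrocytes, and Scn9a had 13 and 30 in neurons and 22 and 10 in astrocytes. Their groups overlapped and straddled background. Scn10a had 2 and 5 in neurons and 3 and 8 in astrocytes, under background on all 4 arrays. Scn11a had 31 and 24 in neurons and 27 and 22 in astrocytes, just above background on all 4. In the fit without the filter these 4 genes had log2 fold changes between -0.16 (Scn10a) and 0.28 (Scn7a), with adjusted p between 0.527 (Scn7a) and 0.788 (Scn11a). Those are for the probe set that reads each gene. Other Scn9a probe sets ran from -0.74 to 0.78. The lowest had 4 and 1 in neurons and 12 and 13 in astrocytes, all under background (limma adjusted p = 0.0446). Another Scn7a probe set had 12 and 5 in neurons and 19 and 18 in astrocytes (-0.58, adjusted p = 0.167). Only its astrocyte arrays were above background. In the GRCm38.p6 gene order, Scn3a and Scn2a are direct neighbours among protein-coding genes, then 3 genes follow, and then Scn1a, Scn9a and Scn7a stand side by side. The 3 genes at one end of this cluster were thus the ones higher in neurons and the 2 at the other end were near background in both cultures.

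Of 3 beta subunit genes, 2 were higher in neurons and Scn4b was too dim to be tested. Beta subunits are cell adhesion proteins of the immunoglobulin type as well as channel partners. Scn3b, abundant early in brain development, had 1037 and 1061 in neurons and 215 and 188 in astrocytes, 4.97-fold higher (log2 fold change 2.31, SE 0.13, adjusted p = 2.03e-06). The replicates were close, and astrocyte cultures stayed well above background on this probe set. A second Scn3b probe set, too dim to be tested, had 24 and 34 in neurons and 20 and 13 in astrocytes. With both averaged, the log2 fold change was 1.42. Scn2b, which binds alpha subunits through a disulphide bond, had 532 and 282 in neurons and 39 and 35 in astrocytes, 8.10-fold higher (log2 fold change 3.02, SE 0.28, adjusted p = 2.73e-05). Scn4b, known for resurgent sodium current, had 4 and 10 in neurons and 11 and 11 in astrocytes, under background on all 4 arrays. Its direct neighbour in the gene order is Scn2b.

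Calcium channel alpha1 subunits differed by class. The N-type and R-type genes were among the clearest differences and the P/Q-type gene did not pass. Cacna1e, the R-type subunit, had 522 and 476 in neurons and 26 and 7 in astrocytes, 18.6-fold higher (log2 fold change 4.22, SE 0.30, adjusted p = 6.24e-06). Cacna1b, the N-type subunit of presynaptic terminals, had 502 and 356 in neurons and 32 and 14 in astrocytes, 12.7-fold higher (log2 fold change 3.66, SE 0.28, adjusted p = 9.43e-06). On these probe sets 1 of the 2 astrocyte arrays was above background for each gene. A second Cacna1e probe set, too dim to be tested, had 26 and 36 in neurons and 24 and 24 in astrocytes. The other tested probe sets of Cacna1b had 683 and 740 in neurons against 2 and 7 in astrocytes, and 688 and 820 in neurons against 0 and 0 in astrocytes, at least 44.5-fold and at least 47.0-fold higher. Cacna1a, the P/Q-type subunit that carries release at most mature central synapses, had 141 and 96 in neurons and 109 and 103 in astrocytes. Its groups overlapped, and its log2 fold change was 0.12 with a 95% interval from -0.36 to 0.61 (adjusted p = 0.646). None of the 3 Cacna1a probe sets that were tested passed.

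The L-type subunits behaved differently from each other. Cacna1c, the main L-type subunit of brain, heart and smooth muscle, had 138 and 154 in neurons and 2 and 5 in astrocytes, at least 9.13-fold higher (log2 fold change 3.31, SE 0.23, adjusted p = 6.12e-06). Neither astrocyte array was above background. Cacna1d, the L-type subunit that opens at more negative potentials, had 198 and 235 in neurons and 184 and 166 in astrocytes, a log2 fold change of 0.29 with a 95% interval from -0.09 to 0.66 (adjusted p = 0.170). Both neuron arrays lay above both astrocyte arrays, the difference did not pass, and all 4 arrays were well above background. Of 8 smooth muscle and pericyte markers, 4 (Acta2, Tagln, Cnn1 and Pdgfrb) were higher in astrocytes, Des and Rgs5 did not pass and Myh11 and Kcnj8 were too dim to be tested. Their summed signals were 233 and 606 in neurons and 8197 and 9006 in astrocytes, most of it from Acta2 (87 and 361 in neurons, 4544 and 4791 in astrocytes) and Tagln (6 and 95 in neurons, 2691 and 3331 in astrocytes). The part of such cells in the signals of other channel genes was not tested. Cacna1f, known from the retina, had 22 and 38 in neurons and 35 and 23 in astrocytes (log2 fold change 0.02, 95% interval -0.64 to 0.69, adjusted p = 0.952). Cacna1s, of skeletal muscle, had 3 and 9 in neurons and 11 and 11 in astrocytes, all under background.

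Both T-type genes measured were higher in neurons, at modest signals. Cacna1h had 99 and 144 in neurons and 22 and 23 in astrocytes, 3.77-fold higher (log2 fold change 1.92, SE 0.24, adjusted p = 0.000166). Cacna1g, known for burst firing in the thalamus, had 111 and 92 in neurons and 24 and 2 in astrocytes, 4.94-fold higher (log2 fold change 2.30, SE 0.40, adjusted p = 0.00122). The 2 astrocyte arrays lay on either side of background for Cacna1g. Leaving out neurons replicate 1 (adjusted p = 0.0943) or neurons replicate 2 (adjusted p = 0.0775) ended the call, and its log2 fold change of 2.30 became 2.97 without astrocytes replicate 1 and 1.64 without astrocytes replicate 2.

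The alpha2delta subunits, which carry channels to the membrane and bind gabapentin in the case of Cacna2d1 and Cacna2d2, were higher in neurons in 3 of 4 genes. Cacna2d1 had 1483 and 1453 in neurons and 156 and 118 in astrocytes, 9.98-fold higher (log2 fold change 3.32, SE 0.16, adjusted p = 7.29e-07). Cacna2d3 had 567 and 460 in neurons and 34 and 23 in astrocytes, 12.9-fold higher (log2 fold change 3.69, SE 0.20, adjusted p = 1.63e-06). Cacna2d2 had 165 and 186 in neurons and 29 and 29 in astrocytes, 4.52-fold higher (log2 fold change 2.18, SE 0.19, adjusted p = 2.27e-05). All 3 genes were above background on every array, those of astrocytes included. Cacna2d4, known from photoreceptors, had 16 and 7 in neurons and 15 and 11 in astrocytes, not above background on any array. Of its other probe sets, also too dim to be tested, 1 had 9 and 9 in neurons and 19 and 11 in astrocytes, with 1 astrocyte array just above background.

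Among beta subunits, which bind the alpha1 subunit in the cytosol and promote its surface expression, Cacnb4 and Cacnb1 were higher in neurons and Cacnb2 did not pass. Cacnb4 had 451 and 423 in neurons and 172 and 135 in astrocytes, 2.72-fold higher (log2 fold change 1.45, SE 0.16, adjusted p = 9.63e-05). Cacnb1, the form best known from skeletal muscle, had 150 and 111 in neurons and 22 and 12 in astrocytes, 4.87-fold higher (log2 fold change 2.28, SE 0.26, adjusted p = 9.87e-05). For both genes the neuron arrays lay above the astrocyte arrays, and the astrocyte signals of Cacnb4 were well above background. Cacnb2, the main form of heart, had 58 and 43 in neurons and 81 and 62 in astrocytes. Its groups did not overlap, with astrocytes above, and its log2 fold change was -0.42 with a 95% interval from -0.95 to 0.11 (adjusted p = 0.157).

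The gamma subunit family holds both muscle calcium channel subunits and the TARPs, which traffic AMPA receptors and slow their gating more than they act on calcium channels. Of its 8 genes, 3 were higher in neurons, 1 was higher in astrocytes, 1 did not pass and 3 were not tested. Cacng4, a TARP of the immature brain, had 366 and 438 in neurons and 5 and 3 in astrocytes, at least 25.1-fold higher (log2 fold change 4.65, SE 0.21, adjusted p = 5.78e-07). Cacng2, which encodes stargazin, had 285 and 211 in neurons and 28 and 10 in astrocytes, 8.54-fold higher (log2 fold change 3.09, SE 0.30, adjusted p = 3.80e-05). On these probe sets neither astrocyte array was above background for Cacng4, and 1 of 2 was for Cacng2. The other tested Cacng4 probe set had 214 and 143 in neurons and 45 and 10 in astrocytes, with 1 astrocyte array above background and a smaller log2 fold change of 2.38. Cacng5, an atypical TARP, had 100 and 85 in neurons and 50 and 20 in astrocytes, 2.32-fold higher (log2 fold change 1.22, SE 0.31, adjusted p = 0.00962). The call was lost when neurons replicate 1 (adjusted p = 0.175), neurons replicate 2 (adjusted p = 0.131) or astrocytes replicate 2 (adjusted p = 0.0762) was left out, and without the filter (adjusted p = 0.0642). Cacng3, a TARP of forebrain excitatory neurons, was too dim for the filter, with 49 and 27 in neurons and 3 and 5 in astrocytes, at least 2.28-fold higher (adjusted p = 0.0173 without the filter).

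Cacng8, a TARP known from hippocampal and cortical excitatory neurons, was the 1 channel gene called higher in astrocytes. The probe set that reads it had 23 and 27 in neurons and 138 and 121 in astrocytes, 3.79-fold higher in astrocytes (log2 fold change -1.92, SE 0.21, adjusted p = 7.41e-05). The neuron arrays lay just above background and the groups were far apart. With 1 array left out its log2 fold change ran from -2.01 to -1.83, the filter still being set on all 4 arrays. Cacng8 met that filter through the astrocyte arrays alone, so it had to differ. In the limma fit without the filter its adjusted p was 0.0022. A second probe set of Cacng8 had 8 and 23 in neurons and 4 and 3 in astrocytes, not above background on any array, so only 1 of 2 probe sets gave this difference. With both probe sets averaged, the log2 fold change was -0.58 (adjusted p = 0.0399). Its direct neighbours are Cacng7 and Cacng6. Cacng7, an atypical TARP, had 97 and 49 in neurons and 68 and 73 in astrocytes. The neuron arrays enclosed both astrocyte values, with a log2 fold change of -0.02 and a 95% interval from -0.66 to 0.63 (adjusted p = 0.967). Cacng6 had 14 and 16 in neurons and 15 and 4 in astrocytes, and Cacng1, of skeletal muscle, had 2 and 10 in neurons and 4 and 3 in astrocytes; both were under background throughout. In the gene order Cacng4 stands between Cacng1 and Cacng5.

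Both HCN genes measured were higher in neurons. Hcn3, a form that responds weakly to cyclic nucleotides, had 117 and 117 in neurons and 5 and 1 in astrocytes, at least 7.33-fold higher (log2 fold change 3.07, SE 0.25, adjusted p = 1.30e-05). Hcn2, a cyclic AMP-sensitive form of cortex and thalamus, had 95 and 96 in neurons and 26 and 40 in astrocytes, 2.40-fold higher (log2 fold change 1.26, SE 0.23, adjusted p = 0.00158). Hcn2 was above background on all 4 arrays. Its adjusted p was 0.0507 without neurons replicate 2.

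**Figure D2:**
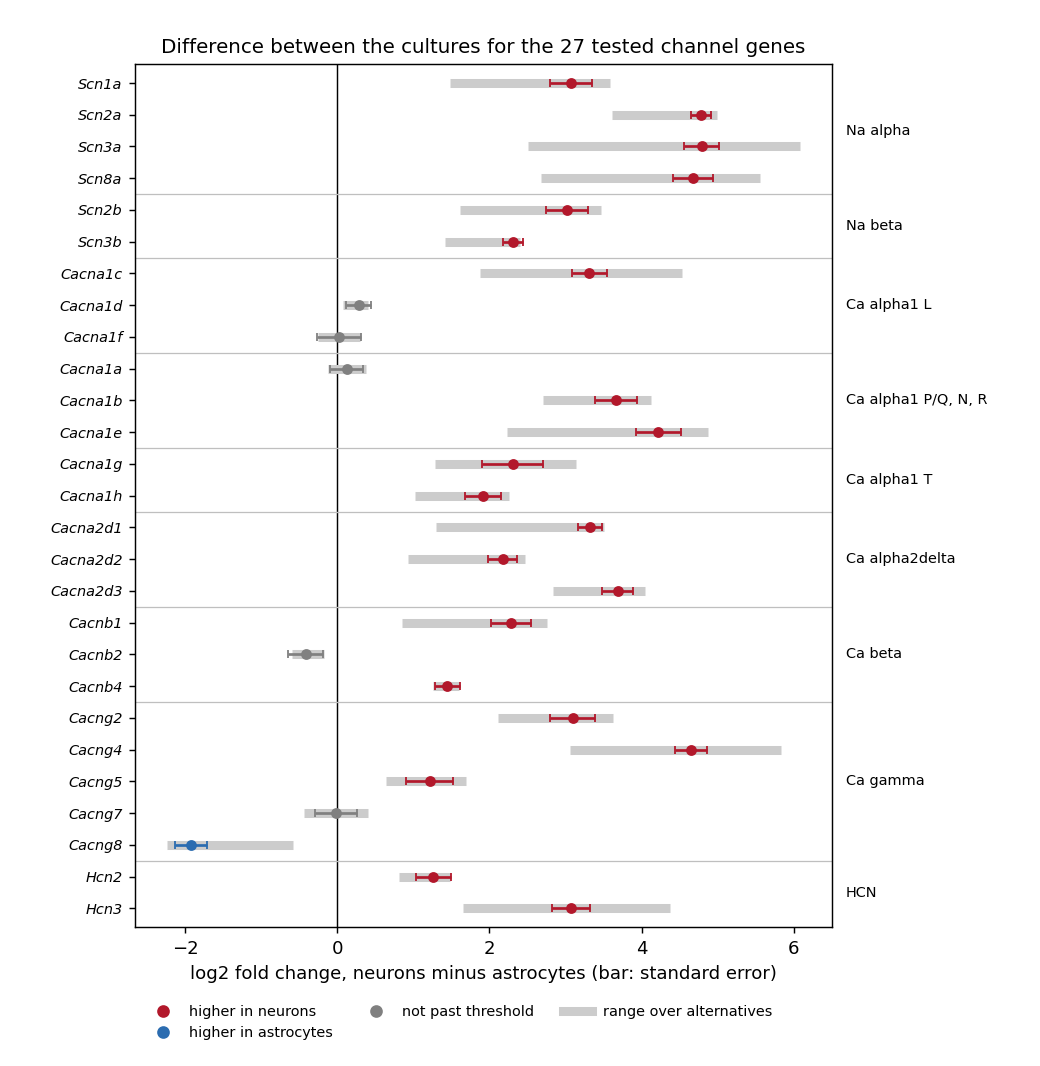
Log2 fold change, neurons minus astrocytes, of the 27 channel genes tested, with its standard error from limma; red marks genes higher in neurons, blue the gene higher in astrocytes and grey those that did not pass, and the grey bar spans the values over the alternative settings. The 5 genes that did not pass (Cacna1a, Cacna1d, Cacna1f, Cacnb2 and Cacng7) lie between -0.42 and 0.29, and Scn2a, Scn3a and Scn8a lie between 4.68 and 4.79.

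Different probe sets of a gene often gave different sizes. Of 26 genes with more than 1 probe set, 9 had log2 fold changes of both signs in the fit without the filter, and over tested probe sets alone 3 genes did (Cacna1a, Cacna1d and Cacna2d1). Of the 87 probe sets, 49 were bright enough to be tested; 38 of these were higher in neurons, 1 was higher in astrocytes and 10 did not pass, where 29.4% and 27.7% of all tested probe sets were higher in neurons and in astrocytes. Of 13 genes with more than 1 tested probe set, 9 had all of them higher in neurons and 3 (Cacna1a, Cacna1d and Cacng7) had none called. The remaining gene was Cacna2d1, in which 1 of 4 tested probe sets, with 76 and 68 in neurons and 108 and 79 in astrocytes, had a log2 fold change of -0.32 (adjusted p = 0.236), against 3.32 for the probe set that reads the gene. The tested probe sets of Scn2a had 4.78, 4.40 and 4.39, and a further one, too dim to be tested, had 0.88 without the filter. The tested ones of Scn8a ran from 1.78 to 4.68, and those of Scn2b were 0.74 and 3.02. The mean over all probe sets, dim ones included, kept the direction and the call of all 22 called genes and moved the fold of 13 of them by over 1.5 times, for example to a log2 fold change of 1.30 for Cacna2d1, 2.51 for Scn3a and 2.23 for Cacna1e. Which transcripts or exons each probe set reads was not examined, nor was hybridization between related channel genes. Without the probe sets whose names mark possible shared sequence or transcripts (_s_at, _x_at, _a_at), 20 of 25 channel genes tested were higher in neurons and 1 in astrocytes. Of all 10450 genes tested in that way, 3326 were higher in neurons and 3152 in astrocytes.

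**Figure D3:**
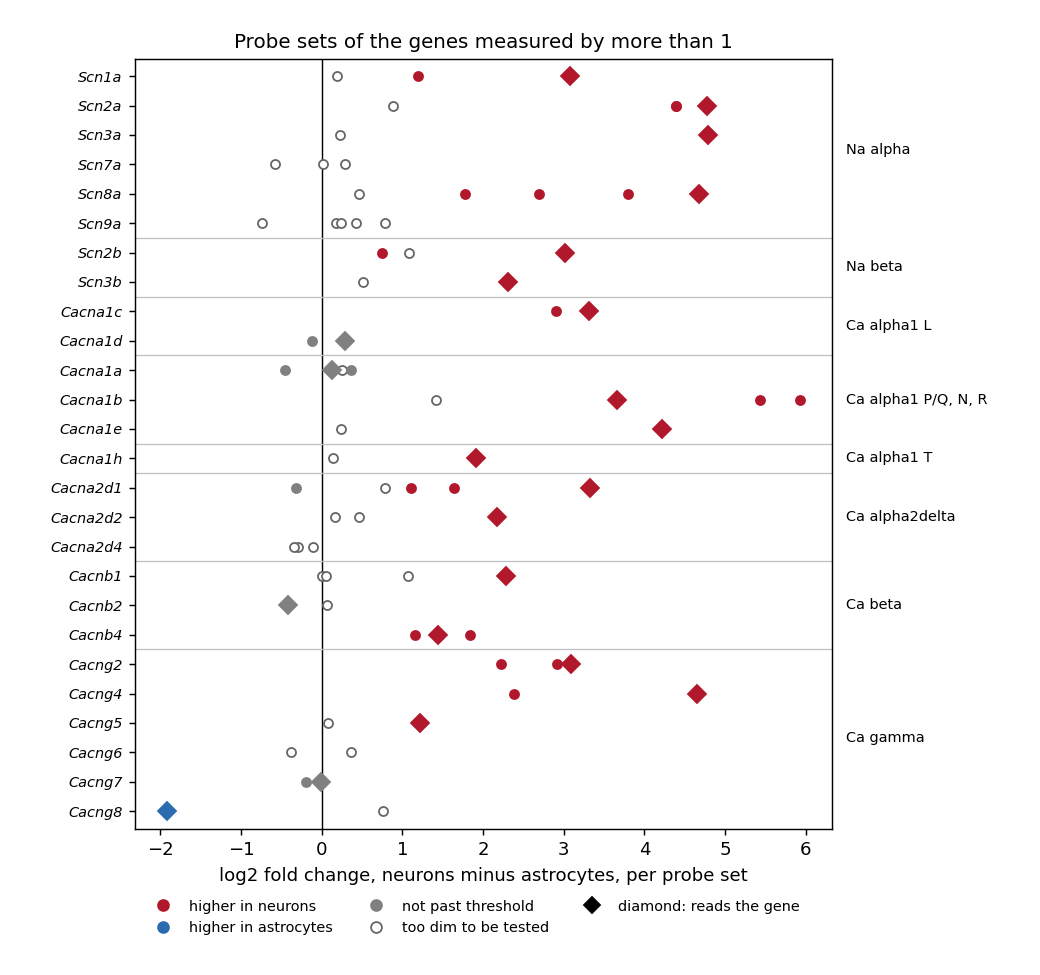
Log2 fold change, neurons minus astrocytes, of each probe set of the channel genes that have more than 1; diamonds mark the probe set that reads the gene, filled circles other tested probe sets and open circles those too dim to be tested. Apart from Cacng8 and 1 probe set of Cacna2d1, the filled symbols of the called genes lie right of 0.

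Genes were taken from 5 lists: partners of sodium, of calcium and of HCN channels, the sodium leak channel complex, and AMPA receptor auxiliary proteins. Their counts stand beside 31.0% of all 12040 genes tested that were higher in neurons and 31.1% higher in astrocytes. Of 13 sodium channel partners with a probe set, 12 were tested, 11 were higher in neurons and 1 was higher in astrocytes, with a median log2 fold change of 1.94, against 0.02 over all genes tested. Ank3, which encodes the ankyrin that anchors sodium channels at the axon initial segment, had 2393 and 2166 in neurons and 63 and 71 in astrocytes, 28.8-fold higher (adjusted p = 1.35e-07). The axonal adhesion gene Cntn1 was 21.0-fold higher and Fgf13, whose product binds the tail of sodium channel alpha subunits, 11.9-fold higher. Dlg1, a scaffold protein gene, was 1.94-fold higher in astrocytes (adjusted p = 0.000171). Of 17 calcium channel partners with a probe set, 15 were tested, 10 were higher in neurons and 3 in astrocytes (median 1.40). Rims1, an active zone scaffold, had 671 and 637 in neurons and 3 and 17 in astrocytes, 31.2-fold higher (adjusted p = 2.05e-06), and Stx1a, a release SNARE that binds N-type channels, was 25.9-fold higher. Dpysl2, which encodes a collapsin response protein that binds N-type channels, was 1.59-fold higher in neurons (8320 and 8741, against 5277 and 5420 in astrocytes).

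The small GTPases that bind calcium channel beta subunits and reduce calcium current went in both directions. Rem2 had 236 and 121 in neurons and 7 and 1 in astrocytes, at least 10.6-fold higher (adjusted p = 3.70e-05). Gem had 14 and 19 in neurons and 319 and 245 in astrocytes, at least 12.7-fold higher in astrocytes (adjusted p = 3.74e-06), and Rrad was at least 1.88-fold higher in astrocytes (adjusted p = 0.00650). Stx3, a syntaxin, was 2.05-fold higher in astrocytes (adjusted p = 0.00266). Of 2 tested HCN partners, Pex5l, an accessory subunit that controls HCN trafficking, was at least 7.60-fold higher in neurons (adjusted p = 1.76e-05), and the actin-binding filamin gene Flna was 5.23-fold higher in astrocytes (adjusted p = 9.11e-05). In the complex of the sodium leak channel, Nalcn had 700 and 507 in neurons and 550 and 461 in astrocytes and did not pass (adjusted p = 0.282), while its large cytosolic partner Unc80 had 352 and 253 in neurons and 10 and 8 in astrocytes, at least 18.7-fold higher (adjusted p = 2.15e-06). Of 10 AMPA receptor auxiliary genes other than the Cacng family, 6 were higher in neurons and 2 in astrocytes (median 1.46), against 31.0% and 31.1% of all genes tested. The called auxiliary genes were led by Cnih3 (at least 19.1-fold), Olfm1 (13.5-fold) and Gsg1l (at least 7.02-fold) in neurons, and by Cpt1c (2.45-fold) and Shisa6 (1.80-fold) in astrocytes.

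**Figure D4:**
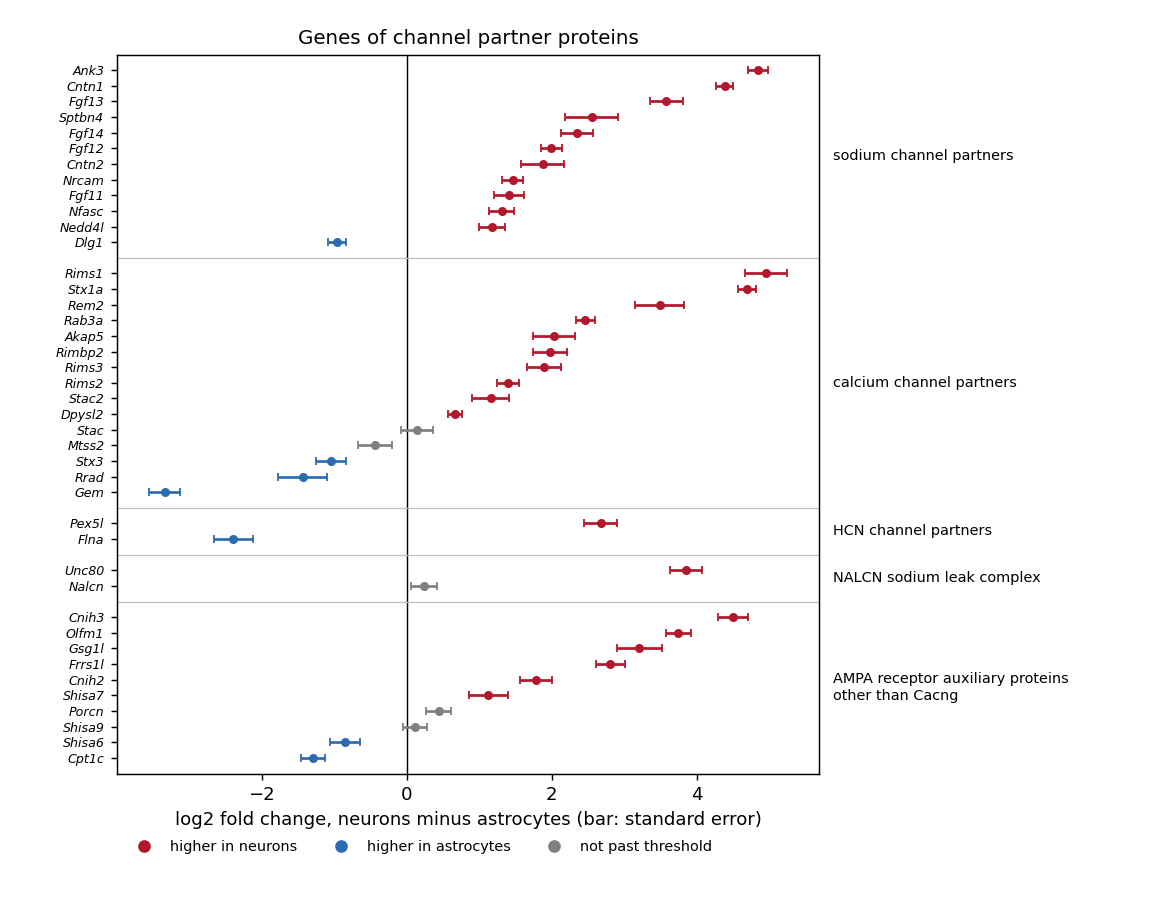
Log2 fold change, neurons minus astrocytes, with its standard error, of the tested genes of 5 lists. These are partners of sodium, of calcium and of HCN channels, the sodium leak channel complex, and AMPA receptor auxiliary proteins. Colours are as in the plot of channel genes. Sodium channel partners lie right of 0 except Dlg1, and the calcium channel partners run from Rims1 (4.96) to Gem (-3.34).

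The labels were checked against marker genes, where 31.0% of all genes tested were higher in neurons and 31.1% higher in astrocytes. All 10 neuron markers were higher in neurons, and they summed to 28688 and 28066 in neurons and 3124 and 2926 in astrocytes, where 5 of the 10 were above background on both arrays. On the astrocyte arrays Snap25 was at 1 and 2, Dcx at 3 and 1, Rbfox3 at 2 and 19, Nefl at 14 and 17 and Nefm at 15 and 13. Tubb3 was at 68 and 63, Syt1 at 35 and 36 and Syn1 at 34 and 21 there, while Map2, at 1487 and 1269, and Stmn2, at 1465 and 1485, made up most of the sum. Scn3b, Cacna2d1 and Cacnb4 were well above background in the same libraries. The part of neurons in those signals was not tested. Of 9 astrocyte markers that could be tested, 2 were higher in neurons and 6 higher in astrocytes. The sums over 10 genes were 8437 and 9739 in neurons and 17317 and 17317 in astrocytes. Gfap was at 2 and 109 in neurons and 1744 and 2133 in astrocytes. Aqp4 was at 551 and 701 in neurons and 4668 and 3859 in astrocytes. Slc1a2 went the other way, at 1832 and 1865 in neuron cultures against 431 and 379 in astrocyte cultures. So did Aldoc, at 2574 and 3422 against 1842 and 2076. Slc1a3 and Gja1 passed toward astrocytes, yet neurons had 1138 and 1258 for Slc1a3 and 1623 and 1715 for Gja1. The part of astrocytes in the channel signals of the neuron cultures was not tested. Of 7 tested oligodendrocyte lineage markers, 5 were higher in neurons, 1 was higher in astrocytes and 1 did not pass, with summed signals of 5429 and 4713 in neurons and 4208 and 4623 in astrocytes. Pdgfra, of oligodendrocyte precursors, had 1177 and 1302 in neurons and 19 and 21 in astrocytes. Olig1 had 2899 and 1895 in neurons and 3500 and 3997 in astrocytes and was higher in astrocytes (adjusted p = 0.0137), and Olig2 had 663 and 642 in neurons and 617 and 508 in astrocytes and did not pass (adjusted p = 0.214). The part of such cells in the excess of channel and Cacng transcripts in the neuron cultures was not tested. Microglia markers were higher in astrocytes in 6 of 7 tested (sums of 144 and 186 in neurons, 915 and 920 in astrocytes), as were 5 of 7 fibroblast and meningeal markers (546 and 566 in neurons, 4020 and 4246 in astrocytes), with 1 higher in neurons, 3 of 4 ependymal markers (193 and 190 in neurons, 1125 and 1242 in astrocytes) and 4 of 6 smooth muscle and pericyte markers. Of 8 endothelial markers 1 was bright enough to be tested and did not pass, and Pecam1 was under background on all 4 arrays.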

How the data were processed

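Gene expression was measured on 4 Affymetrix arrays, from 50 ng of total RNA amplified through a pair of cDNA synthesis rounds, per the labels' protocols. Each deposited value is the intensity of a probe set, computed by the authors with MAS5, per the submitters' processing notes; no MAS5 version was given in the sources used here. They are whole numbers, and the mean after trimming 2% from each end was 150.0 on every array. Control probe sets (64 of 45101) were left out. Of the rest 34945 had 1 gene symbol in the platform annotation, 932 several and 9160 none; no gene was named from those with several.

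Values were transformed to log2(value + 12.5), the offset being the median over arrays of the 25th percentile. The 25019 probe sets with at least 2 of 4 arrays at or above the array's median were fitted with limma 3.58.1 in R 4.3.3 (lmFit, eBayes with trend, two-sided), adjusted by Benjamini-Hochberg over all of them, at a threshold of 0.05. Every adjusted p is from such a fit. Its residual degrees of freedom were 2 and the prior degrees of freedom 6.27; the number of arrays limits the precision, with a median standard error of 0.18. A gene was read by its tested probe set with the highest mean log2 signal. The fit was tested on data simulated from its own variance model, with far fewer changed probe sets than were called here. That test therefore does not measure error rates in these arrays.

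Every channel gene is named; from each partner list up to 3 called genes in each direction and the one with the highest mean. Members, lists, background and motifs were chosen with earlier results of these data known. The alternatives tried were the offset, the filter, quantile normalization, the trend, the choice of probe sets, each array left out and a replicate block.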

Additional observations from a re-analysis of the deposited data

How the results depend on the processing

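Over 13 alternative settings the channel genes higher in neurons numbered 14 to 21 and those higher in astrocytes 0 or 1. The 14 and the 0 came from the filter at the 75th percentile, which left 15 of the channel genes to be tested, Cacng8 not among them (limma, also 0 at an unadjusted p under 0.05). Of all 7982 genes tested at that filter, 2809 were higher in neurons and 2861 in astrocytes. Of the 22 called genes, 19 kept their call under every alternative that tested them; the exceptions were Cacna1g, Cacng5 and Hcn2. The median log2 fold change of the tested channel genes was 2.31; it was 1.66 with an offset 4 times as large, 3.14 with an offset divided by 4, 1.58 without the filter, 3.32 with the filter at the 75th percentile, 1.48 with all probe sets averaged, 3.02 without probe sets named _s_at, _x_at or _a_at, and 2.22 to 2.97 with 1 array left out. These medians cover different genes where the filter or the probe sets differ. In the fits with 1 array left out, the lone array of a group was assumed to vary like the other group.

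The log2 fold change changed sign for 3 genes that were not called: Cacna1a (-0.13 without neurons replicate 1, the range with 1 array left out being -0.13 to 0.37), Cacna1f (-0.086 with quantile normalization, -0.25 without neurons replicate 2 and -0.19 without astrocytes replicate 2, in a range of -0.25 to 0.30) and Cacng7 (0.0019 with the larger offset, 0.40 without neurons replicate 2 and 0.03 without astrocytes replicate 2, in a range of -0.43 to 0.40). Adjusted p in these 7 fits lay between 0.151 and 0.994, and the cause was not tested. With the replicate number as a block, 21 channel genes were higher in neurons and 1 in astrocytes, as without it. Of all 12040 genes in that fit, 3677 were higher in neurons and 3727 in astrocytes. The replicate numbers are not stated to pair the samples, and the deviations of same-numbered arrays had a correlation of -0.0901 across probe sets. The filter at each array's median, not the Bacillus subtilis controls, set the limit: 10 of the 37 genes were too dim to be tested. Of these, Scn11a was above background on all 4 arrays and Cacng3 on both neuron arrays.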
